A study of Homo sapiens with 2 samples.

Results

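The membrane-bound mucins examined here are MUC1, MUC3A, MUC4, MUC12, MUC13, MUC15, MUC16, MUC17 and MUC20, taken as every gene probe on the arrays whose gene name is one of these symbols. They comprised 9 of 25940 gene names and 17 of 34127 probes, with 4 probes for MUC4, 3 for MUC12, 2 each for MUC1, MUC16 and MUC17, and 1 for each of the other 4 genes. RNA came from MKN74 and MKN45, both established human gastric cancer cell lines grown in RPMI1640 with 10% FBS, 48 hours after electroporation with siRNA at 50 nM. In each cell line the Cy5 channel held RNA of cells given SET7/9 siRNA and the Cy3 channel RNA of cells given negative control siRNA, on 1 two-colour Agilent array. SET7/9, encoded by SETD7, is a lysine methyltransferase that acts on histone H3 and on other proteins. Every control cell therefore carried an siRNA too, the dyes were not swapped, and which SET7/9 siRNA was hybridised is not given in the sources used here. With 1 array per cell line there are no replicates, so no array gives a p-value or a replicate SD, the number of arrays limits the precision of every value, and an effect of the siRNA cannot be told apart from the dye or from variation between cultures. Since the RNA was bulk, fewer expressing cells and less RNA per cell cannot be told apart either.

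A membrane-bound mucin carries a long extracellular stretch of repeats rich in serine, threonine and proline, on which dense O-linked sugar chains are built in the Golgi, above a transmembrane helix and a cytoplasmic tail. In several members an extracellular SEA domain is cleaved while the protein is made and the parts stay together, so that the mucin part can be shed, and the tails of several members take part in signalling. MUC1 is the best known membrane mucin of the gastric surface epithelium, whereas MUC3A, MUC12, MUC13 and MUC17 are known mainly from the intestinal brush border, MUC4 from its binding to the receptor ERBB2, and MUC16 as the carrier of the tumour antigen CA125.

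The probe sequences that matter most for the results below are those of MUC4 and MUC1, because the MUC4 probes lie in repeated sequence and a MUC1 probe gave the greatest difference between the cell lines among the mucin probes measured in both. Probe positions are on GRCh37, and the sequences are printed 5′ to 3′ as designed. The 3 MUC4 probes that were measured lie on the minus strand of chromosome 3, at chr3:195506310-195506369, chr3:195514760-195514819 and chr3:195514780-195514839, and capitals mark the longest run of bases that all 3 hold.
A_33_P3417281: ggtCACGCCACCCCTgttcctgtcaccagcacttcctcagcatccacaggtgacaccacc
A_24_P239176: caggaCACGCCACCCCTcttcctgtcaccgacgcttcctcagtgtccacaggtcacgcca
A_24_P239177: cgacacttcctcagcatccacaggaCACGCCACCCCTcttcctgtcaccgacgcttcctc

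The shared run of 12 bases was defined from these 3 probes, and no other of the 34127 gene probes held it. That search covered the probes of the array only, so whether transcripts of other genes hold the run was not tested. A_24_P239176 and A_24_P239177 overlapped by 40 bases and are not independent measurements, while A_33_P3417281 shared a run of 21 bases with A_24_P239177. The fourth MUC4 probe, A_24_P208825 at chr3:195474164-195474223, does not hold the run and lies toward the 3′ end of the gene, 32.1 kb from A_33_P3417281 and 40.6 kb from the overlapping pair.

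The MUC1 probes lie on the minus strand of chromosome 1. The first crosses a splice junction, from chr1:155158652 to chr1:155159726, and holds codons of the cytoplasmic tail, and the second lies 2.31 kb upstream of it at chr1:155161975-155162034.
A_23_P137856: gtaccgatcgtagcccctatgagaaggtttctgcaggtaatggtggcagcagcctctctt
A_33_P3332215: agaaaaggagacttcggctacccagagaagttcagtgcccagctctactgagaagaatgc

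SETD7, the targeted gene, had a signal of 369 with control siRNA and 90.1 with SET7/9 siRNA in MKN74, and of 197 and 51.2 in MKN45, at the probe on chr4:140427692-140427751. These are log2 ratios of -2.03 (error 0.28) and -1.95 (error 0.28), where the error is the one the scanner software assigns to the spot and is not a replicate SD. A second SETD7 probe, at chr4:140453844-140453903, gave 0.24 (error 0.22) and -0.23 (error 0.21). Epithelial markers fixed as a list (EPCAM, CDH1, KRT8, KRT18 and KRT19) were measured in both cell lines, 5 of 5 genes, all within 1.5-fold of the control and within 2-fold between the cell lines. Of 3 mesenchymal markers, 0 were measured in MKN74 and 1 in MKN45, VIM at signals of 29.7 in Cy3 and 21.3 in Cy5. Of 3 immune markers, 2 in MKN74 and 3 in MKN45 were measured, with CD68 at 284 and 89.5 in Cy3. CD3E (0.62, error 0.39) and a PTPRC probe (1.36, error 0.36) passed 1.5-fold in MKN45 with Cy3 not well above background, and another PTPRC probe with both channels well above background was at -0.29 (error 0.31). Of 2 endothelial markers, 1 and 2 were measured, each in 1 channel only, and PECAM1 was at -1.28 (error 0.48) in MKN45. The part of these markers in the mucin values was not tested.

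Transcripts of 5 of the 9 membrane-bound mucins were detected in at least 1 cell line, and the cell lines differed in which. In MKN74, MUC1, MUC4, MUC16 and MUC17 were measured. In MKN45, MUC1, MUC4 and MUC13 were. A probe counted as measured where the scanner software marked at least 1 channel as well above background, and the 6 probes of each cell line met this in both channels. That is 35.3% of the 17 probes in each cell line, beside 60.6% of all gene probes in MKN74 and 66.9% in MKN45. Only 4 probes were measured in both cell lines, 1 of MUC1 and 3 of MUC4, and 9 probes were measured in neither, with signals between 1.92 and 8.21, below the lowest signal marked as well above background in each channel (17.4 and 15.9 in Cy3, 9.96 and 8.89 in Cy5, for MKN74 and MKN45).

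**Figure D1:**
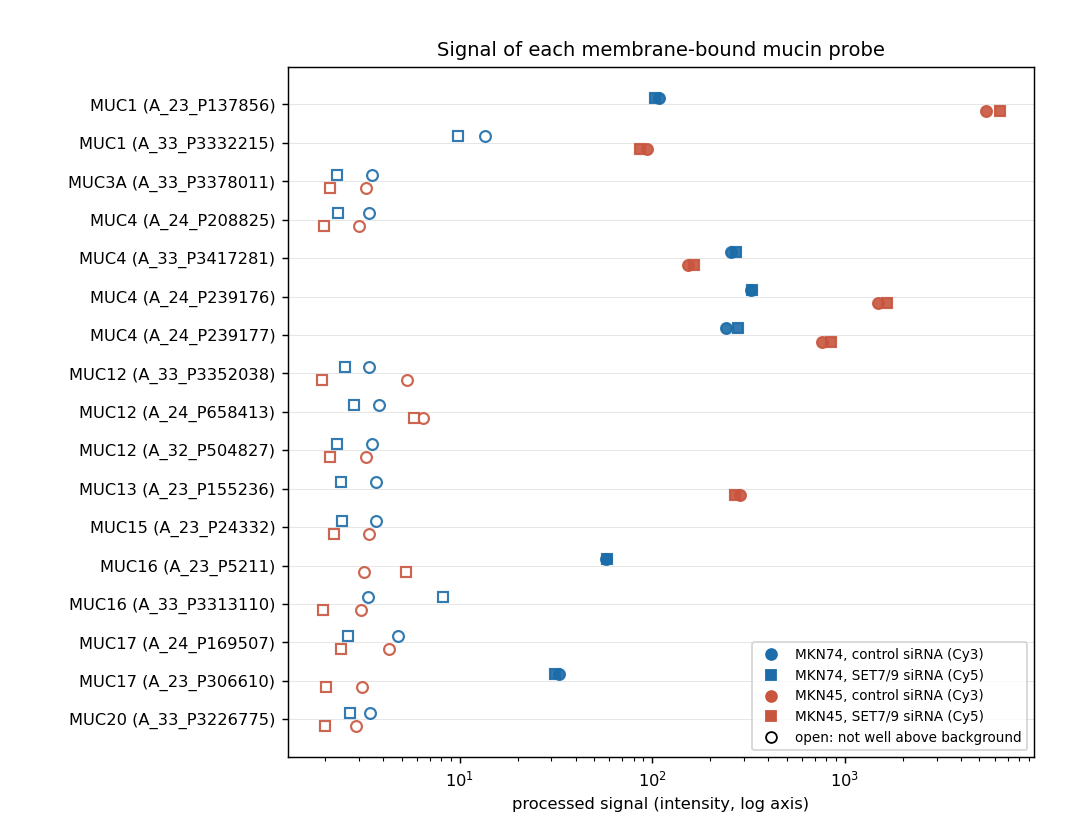
Processed signal (intensity, log axis) of the 17 membrane-bound mucin probes in MKN74 (blue) and MKN45 (red), with control siRNA in Cy3 (circles) and SET7/9 siRNA in Cy5 (squares), 1 spot each. Filled symbols are well above background, open symbols are not, and only symbols of the same row are comparable, since probes differ in brightness. Circles and squares of a cell line lie close together where filled, and the blue and red symbols lie apart for MUC1, MUC13, MUC16, MUC17 and the overlapping pair of MUC4 probes.

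For MUC3A, MUC12, MUC15 and MUC20 no probe was well above background. MUC3A and MUC12 are large SEA-domain mucins of the intestine, MUC15 is a smaller membrane mucin, and MUC20 is known to bind the receptor MET. The MUC3A probe read 3.50 and 2.31 in MKN74 (Cy3 and Cy5) and 3.25 and 2.11 in MKN45. The 3 MUC12 probes read between 2.31 and 3.81 in MKN74 and between 1.92 and 6.45 in MKN45. MUC15 read 3.69 and 2.45, then 3.37 and 2.23, and MUC20 read 3.43 and 2.70, then 2.91 and 2.01. Values this low include small numbers that the scanner software puts in place of signals at background, so no ratio is given for them, and a change in these 4 transcripts was not detectable.

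Neighbouring mucin genes differed in detection. MUC3A, MUC12 and MUC17 are neighbours on chromosome 7, with 0 protein-coding genes between them in the RefSeq order, and MUC17 alone was measured, in MKN74. MUC20 and MUC4 are neighbours on chromosome 3 in the same sense, and MUC4 was measured in both cell lines while MUC20 was in neither. Within genes with several probes, the measured probe was the more 3′ of the pair in MUC16 and MUC17, and the MUC1 probe measured in both cell lines was also the more 3′. In MUC4 the order was the opposite, since A_24_P208825, the most 3′ of its 4 probes, read between 1.98 and 3.38 over the 4 channels, while the 3 upstream probes with the shared run were well above background. All 4 MUC4 probes carry the same transcript accession in the array design, and the cause of this split was not tested.

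With SET7/9 siRNA no measured probe of a membrane-bound mucin passed 1.5-fold in either cell line. Of the 6 probes measured in MKN74, 0 were higher and 0 lower, beside 3.78% of all measured probes higher and 1.76% lower. Of the 6 in MKN45, 0 were higher and 0 lower, beside 4.81% and 1.97%. All 12 values had both channels well above background, and among all probes of that kind 2.09% in MKN74 and 2.43% in MKN45 passed 1.5-fold in either direction, so that a count of 0 of 6 is near this background and is no result about the mucins. The log2 ratios ranged from -0.08 to 0.21 (MKN74) and from -0.12 to 0.24 (MKN45), that is from 0.946-fold to 1.15-fold and from 0.921-fold to 1.18-fold. Their medians were 0.012 and 0.12, beside 0.0056 and 0.014 over all measured probes. In each cell line 5 of the 6 ratios were smaller than the error of their spot, and 73.7% of all both-channel probes in MKN74 and 80.0% in MKN45 lay within the greatest mucin ratio.

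**Figure D2:**
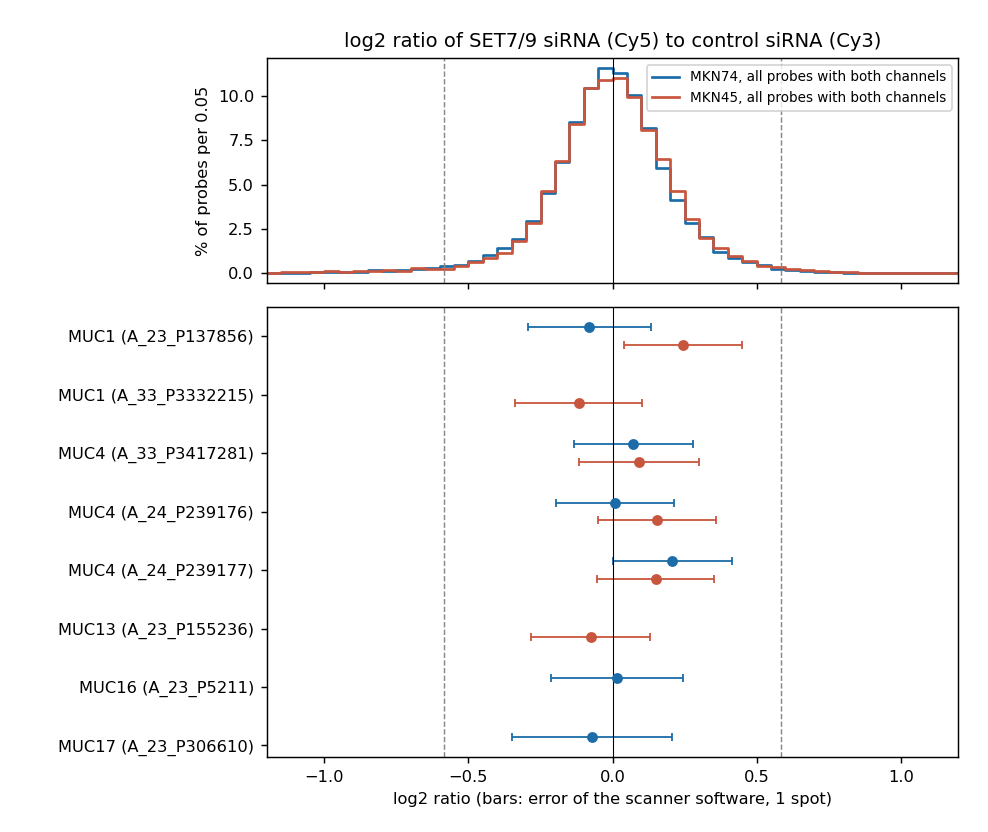
Lower panel, log2 ratio of SET7/9 siRNA to control siRNA for the 8 membrane-bound mucin probes measured in MKN74 (blue) or MKN45 (red), 1 spot each, with bars for the error of the scanner software. Upper panel, percentage of all probes with both channels well above background in steps of 0.05. Dashed lines mark 1.5-fold (0.58), and all 12 mucin values lie between them, from -0.12 to 0.24.

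MUC1, whose cytoplasmic tail binds beta-catenin and kinases, gave the greatest ratio of the family. In MKN74 its probe A_23_P137856 read 109 with control siRNA and 103 with SET7/9 siRNA, a log2 ratio of -0.08 (error 0.21). In MKN45 the same probe read 5407 and 6405, a log2 ratio of 0.24 (error 0.21). The signs were opposite, and the difference of 0.32 between the cell lines exceeded its combined error of 0.30 only slightly. The upstream MUC1 probe A_33_P3332215 read 93.7 and 86.3 in MKN45, a log2 ratio of -0.12 (error 0.22), opposite in sign to the other MUC1 probe, although this ratio was smaller than its error and after normexp and loess normalization the signs were the same (0.09 and 0.18). In MKN74 it read 13.6 and 9.85 and was not well above background in either channel.

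MUC4, a membrane mucin with an ERBB2-binding EGF-like part and no SEA domain, had 6 measured ratios, all above 0 with the scanner software's normalization, while after normexp and loess A_24_P239176 in MKN74 was at -0.00098. A_33_P3417281 read 258 and 271 in MKN74 (Cy3 and Cy5) and 154 and 164 in MKN45, with log2 ratios of 0.07 and 0.09. A_24_P239176 read 328 and 329, then 1490 and 1660, with log2 ratios of 0.0072 and 0.16. A_24_P239177 read 241 and 278, then 764 and 848, with log2 ratios of 0.21 and 0.15. The errors of these 6 ratios were 0.20 to 0.21, and 5 of the 6 ratios were smaller than their error, the exception being A_24_P239177 in MKN74, which equalled its error to 2 decimals. The probes share bases and the same pair of RNA samples, so that the common sign is 1 observation per cell line rather than 3.

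The other 3 detected members were measured in 1 cell line each. MUC13, a small SEA-domain mucin of the gut, read 284 and 269 in MKN45, a log2 ratio of -0.08 (error 0.21). MUC16 read 57.6 and 58.2 in MKN74 at A_23_P5211, which crosses a splice junction from chr19:8966801 to chr19:8968923, a log2 ratio of 0.02 (error 0.23). MUC17, a SEA-domain mucin of the small intestine, read 32.9 and 31.3 in MKN74 at chr7:100701904-100701963, a log2 ratio of -0.07 (error 0.28). All 3 ratios were smaller than their errors. The second MUC16 probe, 91.6 kb upstream, and the second MUC17 probe, 24.1 kb upstream, were not well above background in either cell line.

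Taking both arrays as replicates, limma tested the 4 mucin probes measured in both cell lines against a log2 ratio of 0. With Benjamini-Hochberg adjustment over all 19595 probes, 0 of the 4 passed an adjusted p of 0.05, beside 0% of all probes. The lowest adjusted p in limma was 0.396, for A_24_P239177 of MUC4 at a mean log2 ratio of 0.18, higher in 2 of 2 arrays, and the highest was 0.735. Without adjustment 0 of the 4 had a p under 0.05 in limma, beside 2569 (13.1%) of all probes. The fit had 1 residual degree of freedom, and even the SETD7 probe lowered in both cell lines had an adjusted p of 0.255 in limma. An adjusted p above 0.05 here is therefore no sign that a transcript was unchanged. Over the same 4 probes, the median difference in response, MKN45 minus MKN74, was 0.08, and that difference has no test with 1 array per cell line.

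The cell lines differed far more in their levels of membrane-bound mucins than the siRNA changed them. In control RNA (Cy3), MUC1, MUC13 and the overlapping MUC4 probes were higher in MKN45, and MUC16 was higher in MKN74. Of the 8 probes measured in Cy3 in either cell line, 5 (of 3 genes) were at least 2-fold higher in MKN45, beside 22.7% of all 21610 probes, and 1 (of 1 gene) was at least 2-fold higher in MKN74, beside 17.5%. Only 1 cell line gave a signal well above background for 4 of the 8 probes, beside 19.4% of all probes. Each channel was scaled to the 75th percentile of its array, and MKN45 was compared with MKN74 for the same probe. On this scale 56.4% of all calls were higher in MKN45, whereas after Aquantile scaling, which gives both arrays the same distribution of mean log intensities, the share was 44.2%. The median log2 difference of all probes detected on both arrays moved with it, from 0.03 to -0.13. These are single RNA samples of each line, so the differences have no test, and a difference between cell lines and one between cultures cannot be told apart.

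**Figure D3:**
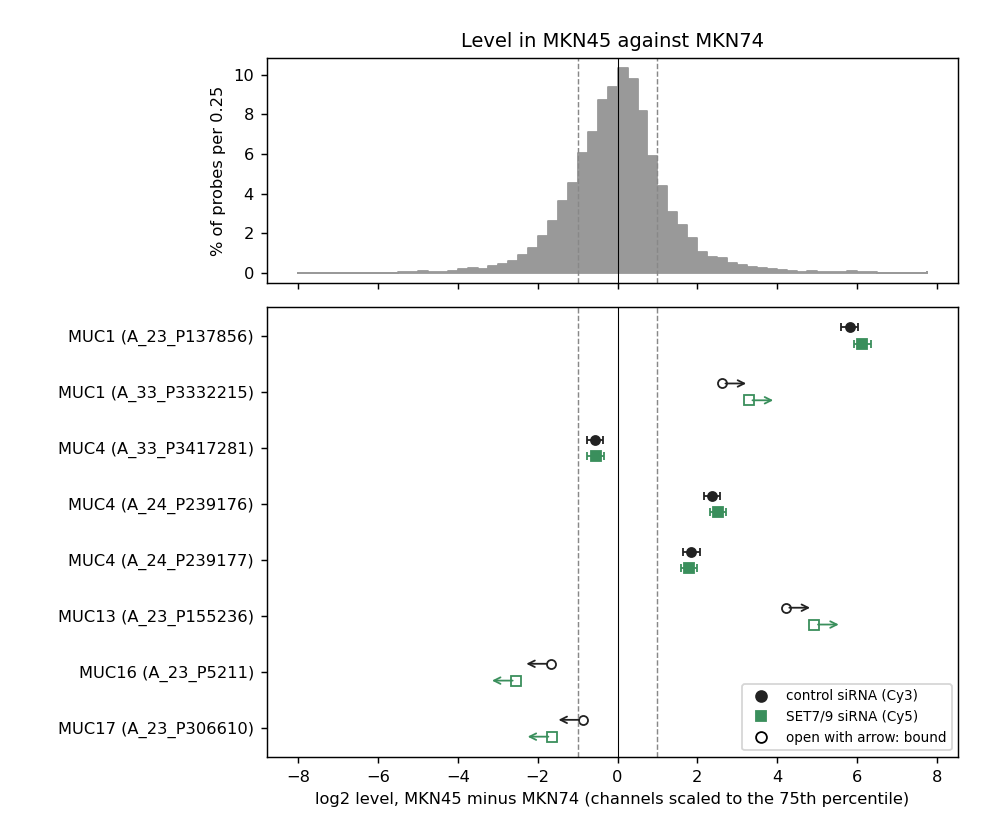
Lower panel, log2 level in MKN45 minus MKN74 for the 8 measured membrane-bound mucin probes, in control RNA (black circles, Cy3) and in RNA after SET7/9 siRNA (green squares, Cy5), with bars for the error of the scanner software and open symbols with arrows for bounds. Upper panel, percentage of all probes well above background in Cy3 on both arrays in steps of 0.25, and dashed lines mark 2-fold. The Cy3 difference was 5.82 for MUC1, 2.37 and 1.85 for the overlapping MUC4 probes and -0.56 for the other MUC4 probe.

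Among the probes measured in both cell lines, MUC1 had the greatest difference. Its A_23_P137856 signal of 5407 in MKN45 against 109 in MKN74 was 56.4-fold after scaling, a log2 difference of 5.82 (error 0.21), and 50.8-fold after Aquantile scaling. Only 0.264% of the 17414 probes well above background in Cy3 on both arrays differed by as much or more in that direction. In the RNA of cells with SET7/9 siRNA the same difference was 70.1-fold. The upstream MUC1 probe was in the same direction, at least 3.88-fold higher in MKN45 after Aquantile scaling and at least 6.12-fold on the 75th percentile scale. With normexp background correction the bound fell to 1.94-fold, under the 2-fold cutoff. These are lower bounds, in which the dim array is set to the higher of its own signal and the lowest signal well above background in that channel, because the probe read 13.6 in MKN74 and was not well above background there.

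MUC13 read 284 in MKN45 and 3.67 in MKN74, where it was not well above background. It was at least 13.4-fold higher in MKN45 after Aquantile scaling and at least 18.5-fold on the 75th percentile scale. In the RNA with SET7/9 siRNA the bounds were 21.9-fold and 30.5-fold. The direction was thus the same with either siRNA.

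The MUC4 probes disagreed on the cell lines. A_24_P239176 was 5.17-fold higher in MKN45 (log2 2.37, error 0.20) and A_24_P239177, which overlaps it, 3.60-fold higher (log2 1.85, error 0.21). A_33_P3417281 was 1.47-fold higher in MKN74 (log2 -0.56, error 0.21), a difference below 2-fold. The same order held in Cy5, with 5.69-fold and 3.44-fold higher in MKN45 and 1.47-fold higher in MKN74, and after Aquantile scaling of Cy3, with 5.32-fold, 3.59-fold and 1.65-fold. The overlapping probes differ from each other by 0.52 on the log2 scale although they share 40 of 60 bases, and from A_33_P3417281 by 2.93 and 2.41. Each gap lies between line differences that have errors of 0.20 to 0.21 themselves, so its own error is larger and was not computed. The scanner error also does not measure how far probes of the same gene agree. Since A_33_P3417281 and the overlapping pair differed in direction, no single level ratio between the cell lines is given for MUC4.

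MUC16 and MUC17 were the members measured in MKN74 alone. MUC16 read 57.6 in MKN74 and 3.17 in MKN45, at least 5.35-fold higher in MKN74 after Aquantile scaling and at least 3.19-fold on the 75th percentile scale. MUC17 read 32.9 in MKN74 and 3.13 in MKN45, at least 3.24-fold and at least 1.83-fold higher on the same scales, so that its call at 2-fold depended on the scaling. In the RNA with SET7/9 siRNA the bounds on the 75th percentile scale were 5.80-fold for MUC16 and 3.12-fold for MUC17, and both passed 2-fold. With normexp background correction, which raises dim signals, 0 members were called higher in MKN74 and the MUC16 bound was 1.21-fold.

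The secreted mucins, gel-forming or free glycoproteins without a membrane anchor, were measured for 4 of 7 genes in MKN74 and 5 in MKN45. With both channels well above background, 0 passed 1.5-fold in either cell line, beside 2.09% of all such probes in MKN74 and 2.43% in MKN45. This count is near that background and is no result about the secreted mucins. List medians (1 probe per gene) were -0.0058 and 0.084. MUC2, the goblet cell mucin, gave log2 ratios of 0.04 (error 0.30) and 0.14 (error 0.23) at A_23_P256784 and 0.09 (error 0.23) and 0.03 (error 0.24) at A_33_P3401571, in MKN74 and MKN45. Another MUC2 probe was at 0.80 (error 0.62) in MKN45 with Cy3 not well above background, where a ratio rests on a dim signal. MUC5AC, the mucin of gastric surface cells, gave -0.10 (error 0.30) in MKN74, and its probes with both channels well above background were at -0.29 (error 0.21) and -0.43 (error 0.21) in MKN45. MUC6, the mucin of gastric glands, was at 0.20 (error 0.23) and 0.16 (error 0.22) at A_24_P88079. Its probe A_33_P3314500 was at -0.03 (error 0.40) in MKN45, where Cy5 alone was well above background. MUC5B, measured in MKN45 only, was at -0.40 (error 0.42). OVGP1 gave -0.11 (error 0.23) in MKN74 and, in MKN45, where Cy5 alone was well above background, 0.08 (error 0.44). In control RNA, MUC5AC was 8.01-fold higher in MKN45 at A_24_P917886 (5.82-fold after Aquantile scaling) and OVGP1 at least 4.03-fold higher in MKN74 (at least 6.52-fold after Aquantile scaling).

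Other membrane mucins were a list of 6 genes that holds MUC21, MUC22 and MUC3B beside the sialomucins EMCN, CD164 and PODXL. CD164 and PODXL were measured, and 0 of 2 passed 1.5-fold in either cell line. That count is near the 2.09% and 2.43% of all both-channel probes that did and is no result about these genes. PODXL gave log2 ratios of 0.03 (error 0.20) and -0.15 (error 0.20). CD164 gave 0.14 (error 0.20) and 0.21 (error 0.21) at one probe and -0.01 (error 0.20) and 0.11 (error 0.20) at the other. Both genes were higher in MKN74 in control RNA, PODXL by 3.02-fold and CD164 by 2.39-fold and 2.35-fold. This direction was opposite to that of MUC1 and MUC13 and the same as that of MUC16 and MUC17.

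Of the measured enzymes that start and extend the O-glycans of mucins, 0 passed 1.5-fold with SET7/9 siRNA, which is near the 2.09% and 2.43% of all both-channel probes that did and is no result about the enzymes. Of the polypeptide GalNAc transferases, which attach the first sugar, 10 of 19 were measured in MKN74 and 13 in MKN45, with 0 higher and 0 lower and medians of -0.05 and -0.0096. Of the extension enzymes, 12 and 16 of 20 were measured, with 0 higher and 0 lower and medians of 0.07 and -0.05. Between the cell lines the transferases past 2-fold were all higher in MKN45. In control RNA, 8 of 14 genes (9 of 15 probes) were at least 2-fold higher in MKN45, beside 22.7% of all probes. In MKN74 it was 0 of 14 genes (0 of 15 probes), beside 17.5%. The counts were also 8 and 0 in Cy5 and after Aquantile scaling of Cy3, but Aquantile scaling changed which genes were called. With it GALNT4 fell from 2.45-fold to 1.54-fold higher in MKN45 and was no longer called. GALNT10 rose from 1.98-fold to 2.07-fold and was called instead. Of the 6 not called without Aquantile scaling, GALNT9 was well above background in MKN74 only, at 18.6 against 3.03 in Cy3. It was at least 1.03-fold higher in MKN74 in Cy3. After Aquantile scaling the bounds were 1.95-fold in Cy3 and 2.77-fold in Cy5. GALNT6, also not called, was 1.10-fold higher in MKN74. Chosen after their values were seen, GALNT14 was at least 303-fold higher in MKN45 (at least 231-fold after Aquantile scaling), with a signal of 4639 against 3.78, and GALNT1 was 8.09-fold and 7.69-fold higher at its 2 probes. Among the extension enzymes, 8 of 17 genes (8 of 20 probes) were higher in MKN45 and 5 genes (5 probes) in MKN74. These stand beside 22.7% and 17.5% of all probes. The Cy5 counts were 7 genes (7 probes) in MKN45 and 5 genes (7 probes) in MKN74, beside 23.9% and 17.4% of all probes. By probe the lean to MKN45 was thus absent in Cy5. ST6GALNAC1, which makes the sialyl-Tn antigen, was at least 254-fold higher in MKN45 (199-fold after Aquantile scaling), and FUT3, the Lewis fucosyltransferase, at least 62.4-fold higher in MKN74 (85.4-fold after Aquantile scaling), both chosen after their values were seen.

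**Figure D4:**
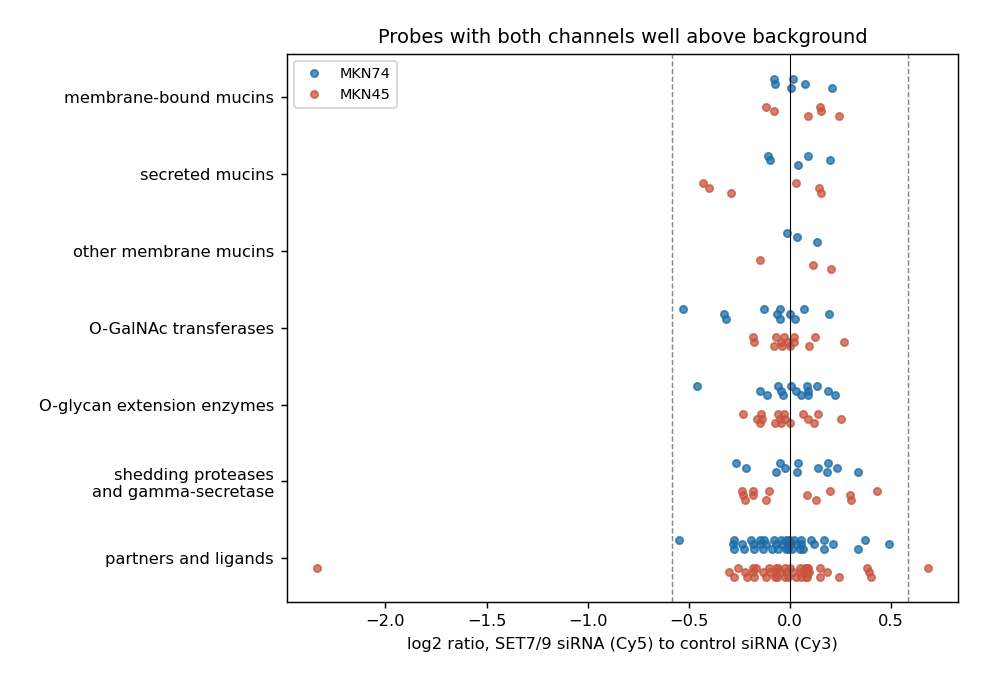
log2 ratio of SET7/9 siRNA to control siRNA for each probe with both channels well above background, in MKN74 (blue) and MKN45 (red), for the membrane-bound mucins and 6 lists of related genes. Each point is 1 probe, dashed lines mark 1.5-fold (0.58), and 2 points of the partners and ligands list in MKN45 lie beyond them, an ERBB3 probe at -2.34 and ICAM1 at 0.68.

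Proteases that shed mucin ectodomains and the gamma-secretase subunits were all measured, 10 of 10 genes in each cell line, with 0 higher and 0 lower than 1.5-fold and medians of 0.04 and -0.11. Over all measured probes, 3.78% were higher and 1.76% lower in MKN74, and 4.81% and 1.97% in MKN45. The counts here and for the partners below are near these shares and are no result about those genes. In control RNA 3 of the 10 protease and gamma-secretase genes (4 of 13 probes) were at least 2-fold higher in MKN74, beside 17.5% of all probes. ADAM10 and ADAM17 were among them. In MKN45 1 of 10, MMP14 (1 of 13 probes), was at least 2-fold higher, beside 22.7%. Of 33 partners and ligands of the mucins, 28 were measured in MKN74 and 30 in MKN45, with medians of -0.03 and 0.05. In MKN74 1 was higher, HSPA8 at 1 probe (0.73, error 0.43) with Cy3 not well above background, while its 2 other probes with both channels were at 0.37 and 0.03. In MKN45 1 was higher, ICAM1, a cell adhesion molecule that binds MUC1, at 0.68 (error 0.29) with signals of 25.3 and 39.9, and in MKN74 it was at -0.06 (error 0.20) with signals of 2405 and 2312. In MKN45 1 was lower, ERBB3, a receptor of the ERBB2 family, at -2.34 (error 0.33) at A_33_P3280471, while its other 2 probes were at -0.07 and 0.02. The receptors bound by the mucins, EGFR, ERBB2 and MET, passed 1.5-fold at none of their measured probes. In control RNA, 11 of 30 partner genes were at least 2-fold higher in MKN45 and 9 in MKN74, where a gene counted if any of its probes passed. By probe the counts were 15 and 9 of 47, beside 22.7% and 17.5% of all probes. After Aquantile scaling 9 and 10 genes were called, beside 17.6% and 22.3% of all probes, although a share of genes is not like for like with a share of probes. MET, named after its values were seen, was 33.2-fold higher in MKN45.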

How the data were processed

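Total RNA of MKN74 and MKN45 cells was measured on 1 two-colour array per cell line (Agilent 4x44K v2 design), both on the same slide and in the same scan, with groups taken from the sample labels. The authors deposited Agilent Feature Extraction 10.7.3.1 output with the spot intensity of each channel after background subtraction and LOWESS dye normalization, and a log10 ratio of Cy5 to Cy3 with its error, as well as a table of log2 ratios. Probe positions are on GRCh37. Log10 ratios were converted to log2, outlier spots (549 and 534, of which 0 were of mucins) were removed, repeated spots were averaged per probe, and probes were retained if 50% or more of their spots were well above background in Cy3 or Cy5. No gene spot was saturated. Between the cell lines each channel was scaled to its 75th percentile, and bounds were also computed after Aquantile scaling. Without a dye swap they may hold dye bias. Repeated spots gave pooled SDs of 0.087 and 0.099 for the log2 ratio, which cover variation within an array only. limma 3.58.1 in R 4.3.3 and Python 3.11.15 were used, the steps were tested on simulated data, and all 9 symbols and 15 of 17 probe accessions matched RefSeq.

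All mucin probes, SETD7, all measured secreted and other membrane mucins, and genes of the pathway lists past 1.5-fold with both channels (the 3 largest each way where over 5) were named. The mucins and lists were chosen with earlier results of these data known. Alternatives covered background correction, normalization, filters, cutoff and scaling.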

Additional observations from a re-analysis of the deposited data

Results flagged for a closer look

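Among the probes of genes named in the text that were measured in Cy3 and Cy5 on each array, 13 had log2 ratios of opposite sign in MKN74 and MKN45. The difference, MKN45 minus MKN74, was 0.32 (combined error 0.30) for MUC1 at A_23_P137856, from -0.08 to 0.24. It was 0.74 (combined error 0.36) for ICAM1, -0.76 (combined error 0.35) for EGFR at A_33_P3351944, -0.46 (combined error 0.30) for the second SETD7 probe and -0.39 (combined error 0.37) for HSPA8 at A_33_P3323463. For the other 8 the combined error of 0.29 was larger than the difference, which was 0.13 for CD164 at A_23_P254756, -0.18 for PODXL, 0.15 for ADAM17, 0.15 for MET, 0.021 for EGFR at A_23_P215790, 0.19 for CDH1, and -0.17 and -0.12 for the KRT18 probes. None of these differences was tested, because each cell line had 1 array.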

How the results depend on the processing

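The counts of membrane-bound mucin probes past 1.5-fold stayed at 0 in each direction with normexp and loess, median centring and the deposited log2 ratios. They were also 0 with both channels required, outlier spots kept and a 2-fold cutoff, but these settings could not have changed them. Every measured mucin ratio already had both channels well above background, 0 mucin spots were outliers, and a higher cutoff cannot raise a count of 0. With no filter on dim probes 1 was higher in MKN74, and 1 higher and 1 lower in MKN45, all from probes not well above background, and the median in MKN45 moved to 0. The 84 mucin ratios over these alternatives lay between -0.13 and 0.24, and 81 kept their sign. The other 3, all after normexp and loess, were MUC1 A_33_P3332215 in MKN45 (0.09) and, in MKN74, MUC4 A_24_P239176 (-0.00098) and MUC16 A_23_P5211 (-0.0026). The 81 are no measure of stability, because only normexp and loess recomputed the ratios from the spot signals. The filters on dim, outlier and saturated spots left every ratio unchanged. Median centring shifts all ratios of an array alike, and the deposited ratios are the same values rounded. limma called 0 under each alternative, with a lowest adjusted p from 0.075 to 0.407.

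Of the 8 mucin probes, the 5 higher in MKN45 were 4 with normexp Cy3, where the bound of MUC1 A_33_P3332215 was 1.94-fold. They were 3 of the 4 probes well above background on both arrays. The 1 higher in MKN74 became 2 with Cy3 quantile-normalized, with Cy5 in place of Cy3, with a 1.5-fold cutoff and with Aquantile scaling (chosen after seeing the data), the added probe being that of MUC17, and 0 with normexp Cy3 and among probes well above background on both arrays. That last setting leaves out all bounds by construction. The share of all probes called moved with the scaling too. Higher in MKN74 it was 17.5% on the 75th percentile scale, 22.4% with Cy3 quantile-normalized, 22.3% with Aquantile scaling and 17.4% with Cy5. Higher in MKN45 it was 22.7%, 17.4%, 17.6% and 23.9%. Shares for the normexp and 1.5-fold settings are not given here. Normexp also took MUC1 to 28.8-fold and MUC13 to at least 4.10-fold.

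No paired analysis was possible because a replicate block needs over 1 array per cell line, while the ratio of an array already pairs its own siRNA and control samples. Leaving out saturated spots removed no spot, the slide was not fitted as a block because both arrays shared it, and leaving out an array leaves no residual degree of freedom. Not well above background in either cell line, 9 of 17 probes gave no usable ratio.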

Other observations

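Other probes with mucin names stand outside the list. MUC3 had a probe with signals between 2.54 and 4.23, not well above background in any channel. MUC8 was near the limit of detection, at 17.4 in Cy3 in both cell lines and at log2 ratios of 0.30 (error 0.37) and 0.21 (error 0.36). MUCL1 was measured in MKN45 in Cy5 only, at 20.0.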
